A study of Mus musculus with 4 samples.

Results

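The integrins and niche adhesion molecules described here came from a list of 38 names, namely of integrin subunits, junction and immunoglobulin family molecules, selectin, hyaluronan and cadherin genes and integrin adaptors. Every probe set annotated to exactly 1 gene of the list was used. This gave 36 of 18194 named genes and 93 of 34945 probe sets. For Ptk2 no probe set was named in the array's annotation. Kindlin is a protein name, so its genes, Fermt1, Fermt2 and Fermt3, were put with the accompanying adhesion complex genes.

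These molecules hold blood stem cells in the bone marrow niche and guide their exit and return. An integrin is a pair of 1 alpha and 1 beta subunit, and the pair decides which matrix protein or cell surface ligand is bound. Inside the cell, talin and the kindlins bind the beta tail and switch the pair to its active form. Junctional adhesion molecules, cell adhesion molecules of the immunoglobulin family, the selectin ligand PSGL-1, the hyaluronan receptor CD44 and the cadherins provide further contacts with marrow cells and vessel walls.

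The transcripts of these genes were compared between mouse CD34(-)KSL hematopoietic stem cells (HSC, n = 2) and CD34(+)KSL multipotent progenitors (MPP, n = 2). Both were sorted from C57BL/6 mice, with no treatment or mutant allele named and no age given. KSL cells carry Kit and another surface antigen, lack the antigens of mature lineages, and include the earliest blood-forming cells. For each sample, RNA equivalent to 3000 cells went through 2 cycles of amplification and was read on 1 Affymetrix Mouse Genome 430 2.0 array, as the intensity of each probe set in arbitrary units. The arrays are named as biological replicates, but separate animals are not stated, so the p-values rest on the spread between these samples only, which may be technical. With 4 arrays in all, their number limits the precision of every value.

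Array medians were 26.1 and 26.9 units in HSC and 22.0 and 21.3 in MPP. A floor was set for each array at its highest signal among 27 Bacillus subtilis control probe sets, and it lay between 13.6 and 16.9 units. Whether such transcripts had been added to the RNA is not stated in the labels. HSC replicate 2 stood apart in its actin control, with a 3' to 5' signal ratio of 9.42 against 4.99 to 5.26 elsewhere. Of 5 HSC marker genes (Slamf1, Procr, Mecom, Hlf and Fgd5), 4 were called higher in HSC. The 3 MPP marker genes, Flt3, Cd48 and Cd34, were all called lower. The summed levels of each list did not overlap between the groups. For the HSC markers they were 5438 to 5903 units in HSC and 1582 to 1837 in MPP. For the MPP markers they were 337 to 645 and 4210 to 4895. Cd34 encodes the antigen by which the groups were sorted, so its fall in HSC is no independent check. It read 469 and 235 units in HSC and 1967 and 2302 in MPP, a large part of the MPP marker sum. Flt3 read 166 and 69.7 units in HSC and 1171 and 1467 in MPP, and Cd48 10.4 and 32.4 against 1071 and 1126.

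The junction genes Jam3, Jam2 and F11r, the immunoglobulin family gene Alcam and the integrin subunits Itga6 and Itgav rose in HSC. The integrin subunit Itgal, the hyaluronan receptor gene Cd44 and the selectin ligand gene Selplg fell. A gene was represented by its brightest tested probe set. It was called at a Benjamini-Hochberg adjusted p under 0.05 in limma over all 27022 probe sets tested, those outside the lowest 40% of mean level. Of 36 genes, 26 had a tested probe set, 6 were called higher, 3 lower and 17 were not called. Over all 12382 genes tested, 13.6% were called, 7.71% higher and 5.9% lower. At an unadjusted limma p under 0.05, 11 of the 26 genes were higher and 3 lower, against 2098 and 1458 of the 12382. By probe set, 8 of the 51 tested were called higher and 7 lower, against 10.6% of all probe sets tested in either direction. The median log2 difference (HSC minus MPP) was 0.41 over the 26 genes and 0.10 over all genes. In bulk samples, fewer cells of a type and less RNA per cell cannot be told apart.

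All 9 called genes had HSC values on one side of both MPP values, as did 10 of the 17 that were not called. Over all genes tested, 58.7% had groups that did not overlap. Across all probe sets, 1611 were higher and 1257 lower, and with the array medians made equal 1020 and 2379. The median of all tested probe sets moved from 0.11 to -0.13 with that change. Without HSC replicate 2, the array that stood apart, 4 adhesion genes were called higher and 2 lower. The counts were 9 and 3 without HSC replicate 1, 4 and 2 without MPP replicate 1, and 3 and 1 without MPP replicate 2.

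**Figure D1:**
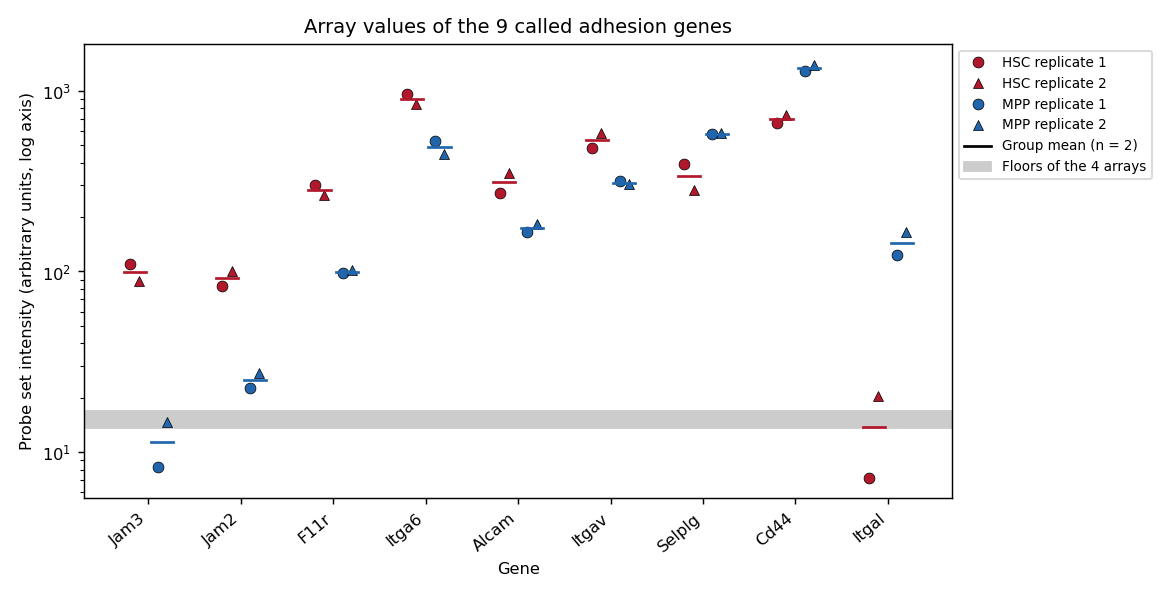
Intensity (arbitrary units, log axis) of the 9 called adhesion genes on each of the 4 arrays, with the mean of each group as a line and the range of the array floors in grey. The HSC points of Jam3, Jam2, F11r, Itga6, Alcam and Itgav lie above both MPP points, and those of Selplg, Cd44 and Itgal below.

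Upstream sequence was printed for the genes with a called probe set that had an entry in the RefSeq promoter table (build GRCm38.p6), to set those that rose beside those that fell. Of 10 genes with a called probe set, 5 had one: F11r, Itgav and Alcam, which rose, and Cd44 and Itgb5, which had probe sets that fell. Each line gives the 150 bases before the gene's start, 5′ to 3′ on the gene's strand. Capitals mark a match on either strand to 1 of 6 motifs. These are the SP and KLF box GGGCGG, the RUNX core TGTGGT, the GATA core AGATAA, the PU.1 type site GAGGAAGT, the ETS type site CCGGAAGT and the palindromic E-box CACGTG. The PU.1 and ETS type sites share their last 6 letters.
F11r (chr1:171437411-171437560, plus strand): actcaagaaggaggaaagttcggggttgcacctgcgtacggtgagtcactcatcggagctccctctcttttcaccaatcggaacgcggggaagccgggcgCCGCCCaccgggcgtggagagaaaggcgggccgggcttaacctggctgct
Itgav (chr2:83724247-83724396, plus strand): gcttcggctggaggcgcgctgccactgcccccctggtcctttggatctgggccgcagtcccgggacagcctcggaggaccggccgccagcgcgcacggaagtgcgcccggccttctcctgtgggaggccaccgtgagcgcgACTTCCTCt
Alcam (chr16:52453082-52453231, minus strand): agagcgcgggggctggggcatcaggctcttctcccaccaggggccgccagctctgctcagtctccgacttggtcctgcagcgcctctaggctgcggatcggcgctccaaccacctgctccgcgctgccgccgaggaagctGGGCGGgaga
Cd44 (chr2:102901666-102901815, minus strand): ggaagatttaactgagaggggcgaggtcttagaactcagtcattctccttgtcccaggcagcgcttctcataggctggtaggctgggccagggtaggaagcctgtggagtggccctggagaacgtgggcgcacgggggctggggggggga
Itgb5 (chr16:33829515-33829664, plus strand): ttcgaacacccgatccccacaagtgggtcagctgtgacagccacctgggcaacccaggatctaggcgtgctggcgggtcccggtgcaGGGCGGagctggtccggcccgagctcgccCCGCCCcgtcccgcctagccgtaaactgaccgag
Within 250 bases before the start, GGGCGG was found in 3 of the 5 genes (F11r, Alcam and Itgb5) and in 32.7% of all 32851 promoters of the table. F11r and Alcam rose while most Itgb5 probe sets fell, so genes of both directions held this match. GAGGAAGT was found for Itgav alone among the 5, 9 bases before the start, and in 2.44% of all promoters. AGATAA was found for Cd44, 233 bases before the start and outside the printed stretch, and in 9.99% of all. The RUNX core, ETS type site and E-box, held by 14%, 2.88% and 6.02% of all, were not in these windows. G and C made up 56.4% to 69.2% of the bases in the 5 genes, against a median of 52.4% over the table. These matches describe letters in the sequence and no test was made of them.

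The junctional adhesion molecules are immunoglobulin family proteins of cell contacts. They bind each other and also integrins. Jam3, which encodes JAM-C, read 111 and 88.4 units in HSC and 8.25 and 14.6 in MPP. Only 1 of the 2 MPP arrays was above its floor. The difference was 2.61 on the log2 scale (SE 0.35, adjusted p = 0.00105 by limma), or 6.12-fold on the log2(intensity + 6.01) scale, on which changes of dim genes come out too small. The other Jam3 probe set was at or under the floor on all 4 arrays and was not tested. Averaging it in gave a log2 difference of 1.39. Jam2, which encodes JAM-B, a binding partner of JAM-C, read 82.8 and 101 units in HSC and 22.6 and 27.3 in MPP. The log2 difference was 1.66 (SE 0.30, adjusted p = 0.00587 by limma).

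Jam2 had 5 probe sets, of which 3 were tested, and all 3 had both HSC values above both MPP values. A second one, 1436568_at, read 88.9 and 81.0 units in HSC and 5.32 and 16.3 in MPP, a log2 difference of 2.52 (SE 0.40, adjusted p = 0.00298 by limma). The third tested one, 1419288_at, was at 0.96 with no call (adjusted p = 0.124). F11r encodes JAM-A. It read 303 and 265 units in HSC against 98.1 and 102 in MPP, with a wide gap between the groups. On the log2 scale the difference was 1.45 (SE 0.21, adjusted p = 0.00154 by limma), but 0.71 with no call (adjusted p = 0.154) when its other probe set, near the floor, was averaged in. The calls of Jam2 and Jam3 held under all alternatives in which they were tested, 13 for Jam2 and 12 for Jam3.

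Alcam, an immunoglobulin family molecule that binds itself and CD6, read 270 and 351 units in HSC and 165 and 183 in MPP. The groups differed by a log2 value of 0.81 (SE 0.21, adjusted p = 0.0334 by limma). Of its 5 tested probe sets, 1 was called, and the other 4 lay between 0.093 and 0.94. Leaving out HSC replicate 2 (0.62, adjusted p = 0.107), MPP replicate 1 (0.73, 0.187) or MPP replicate 2 (0.88, 0.103) ended this call. Equal array medians (0.57, adjusted p = 0.110) ended it too.

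The other tested immunoglobulin family genes encode integrin ligands and had no call. Icam1, a ligand of the beta 2 integrins, read 282 and 344 units in HSC and 183 and 215 in MPP. HSC minus MPP came to a log2 difference of 0.64 (95% interval 0.19 to 1.09, adjusted p = 0.0748 by limma). Icam2, another such ligand, was at 0.069 (-0.34 to 0.48), with overlapping groups. Vcam1, the ligand of integrin alpha 4 beta 1, was dim, at 25.9 and 37.7 units in HSC and 16.8 and 9.33 in MPP, with a log2 difference of 1.00 (0.027 to 1.97, adjusted p = 0.192). Its second tested probe set read 57.1 and 5.67 units in HSC and 38.2 and 7.86 in MPP, at 0.13 with overlapping groups. Ncam1, the neural cell adhesion molecule, had 7 probe sets and none was tested, as all fell under the filter on mean level. Of these, 3 were at or under the floor on all arrays. Probe set 1426864_a_at read 20.4 and 22.5 units in HSC, above the floor, and 1.91 and 4.34 in MPP, under it. Without HSC replicate 1, Icam1 was called at 0.78 (adjusted p = 0.0331). In this family of 8 genes, 7 were tested, 4 were called higher and none lower by limma, with a median log2 difference of 1.00. At an unadjusted p under 0.05, 6 were higher and none lower, against 2098 and 1458 of all 12382 genes tested. With equal array medians 3 were higher and the median was 0.77.

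Some markers of other cell types that carry junction genes were higher in HSC as well. Of 5 endothelial markers, Kdr and Tie1 were called higher, while Pecam1 was at -1.02 with no call (adjusted p = 0.207). Their summed level was 257 to 272 units in HSC and 134 to 140 in MPP, and the defining marker Cdh5 was at or under the floor on all arrays. Of 5 megakaryocyte markers, Pf4 and Gp9 were called higher, while Ppbp was at 1.26 and Gp1bb at -0.20 with no call. The sum was 573 to 747 units in HSC and 217 to 309 in MPP, with Gp6 never above the floor. Of 5 stromal markers, Col1a2 was called higher, Cxcl12 and Lepr had no call at 0.46 and 0.31, and Col1a1 was not tested. The sum was 202 to 218 units in HSC and 79.7 to 89.8 in MPP, with Pdgfra never above the floor. The part of such cells in the junction gene differences was not tested.

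Among the alpha subunits, 2 of 10 tested were called higher and 1 lower, against 7.71% and 5.9% of all 12382 genes tested. The median log2 difference of the alpha subunits was 0.35, against 0.10 over all genes. With equal array medians 1 alpha subunit was higher and their median was 0.11, against -0.13 over all tested probe sets. After quantile normalization their median was 0.18, against -0.0083. Without HSC replicate 1 the calls numbered the same and the median was 0.21. Without HSC replicate 2 or MPP replicate 1, 1 was called higher, and without MPP replicate 2 none (medians 0.55, 0.45 and 0.29). Itga6 encodes alpha 6, which forms laminin receptors with beta 1 or beta 4. It read 964 and 848 units in HSC and 525 and 447 in MPP, a log2 difference of 0.89 (SE 0.17, adjusted p = 0.00828 by limma). Its other probe set read 384 and 424 units in HSC and 187 and 183 in MPP, at 1.10 (SE 0.19, adjusted p = 0.00396). Both Itga6 probe sets therefore separated the groups in the same direction. Leaving out MPP replicate 2 ended the call of the first (0.78, adjusted p = 0.105).

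Itgav encodes alpha V, the subunit of the vitronectin receptors. Its brightest probe set read 480 and 585 units in HSC and 315 and 306 in MPP, a log2 difference of 0.76 (SE 0.18, adjusted p = 0.0241 by limma). The other tested Itgav probe set was dim, at -0.32 with no call, and the remaining 3 were not tested. Leaving out HSC replicate 2 (0.62, adjusted p = 0.0623), MPP replicate 1 (0.78, 0.120) or MPP replicate 2 (0.74, 0.150) ended the call of Itgav. It was at 0.53 with array medians made equal (adjusted p = 0.0914) and at 0.10 when its 5 probe sets were averaged (adjusted p = 0.870).

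Itgal encodes alpha L, which pairs with beta 2 to form LFA-1, the leukocyte receptor for ICAM-1, ICAM-2 and JAM-A. It read 7.23 and 20.4 units in HSC and 124 and 165 in MPP. Only 1 of the 2 HSC arrays was above its floor, and the groups lay far apart. The log2 difference was -2.99 (SE 0.38, adjusted p = 0.000694 by limma), or 7.97-fold lower in HSC on the log2(intensity + 6.01) scale, and it was called under all 13 alternatives, between -3.49 and -1.47. The other Itgal probe set was not tested and its groups overlapped, at 3.35 and 17.6 units in HSC and 10.7 and 6.12 in MPP. Averaging it in gave the value of -1.47. Itgb2, the partner of Itgal, read 95.4 and 90.6 units in HSC against 97.4 and 97.1 in MPP. Itgb2 was at -0.061 (95% interval -0.58 to 0.46, adjusted p = 0.907).

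Some markers of more mature blood cells were lower in HSC as well. Of 6 macrophage and dendritic markers, 3 had both HSC values above both MPP values and 2 below. Csf1r was called lower, at 54.0 and 30.9 units in HSC and 282 and 552 in MPP, and made up most of the list's sum in MPP, which was 165 to 200 units in HSC and 450 to 711 in MPP. Without a call, Cd68 was at -0.82, Adgre1 at 0.12 and C1qb at 0.44, and C1qa and C1qc were at or under the floor on all 4 arrays. Of 5 T and NK cell markers, Nkg7 was called lower, at 49.5 and 43.3 units in HSC and 376 and 312 in MPP, and the sum was 57.0 to 72.5 units in HSC and 333 to 391 in MPP. Cd3d, Cd3e, Cd3g and Ncr1 were at or under the floor on all 4 arrays. Neutrophil markers summed to 34.1 to 109 units in HSC and 61.6 to 79.2 in MPP, and B cell markers to 164 to 179 and 138 to 173. Of the 3 erythroid markers with a probe set, Klf1 was called higher in HSC, Alas2 was never above the floor, and Hba-a1, which was not tested, was above it only in MPP (16.6 and 16.5 units, against 13.7 and 2.33 in HSC). Their sum, mostly Klf1, was 152 to 210 units in HSC and 53.5 to 67.5 in MPP. The part of such cells in the Itgal difference was not tested.

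The remaining tested alpha subunits had no call. Itga4, whose product pairs with beta 1 as VLA-4 and with beta 7 in gut homing, read 531 and 483 units in HSC and 399 and 439 in MPP. Its log2 difference was 0.27 (95% interval -0.11 to 0.66), and all 4 tested Itga4 probe sets lay between -0.18 and 0.39. Itga5, of the fibronectin receptor, was dim and at 0.69 (-0.21 to 1.58). Itga2 and Itga3, of collagen and laminin receptors, Itga9, Itgae and Itgax lay between -0.52 and 0.45, none of them above 44.7 units on any array. Itgam, the alpha M subunit of Mac-1 on myeloid cells, stayed under the floor on all 4 arrays, at 16.3 and 11.1 units in HSC and 7.36 and 4.06 in MPP. Itga1, Itga7 and Itga8 had no tested probe set either, and each was above the floor on only 1 array.

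Of 4 tested beta subunits, none was called by limma on its brightest probe set. With an unadjusted p under 0.05, 1 was higher, against 2098 of all 12382 genes tested. Without _x_at, _s_at and _a_at probe sets, the median log2 difference was -0.32 over Itgb2 and Itgb7, the 2 beta genes whose brightest probe set was kept. Over all 4 beta genes the median was 0.057, but -0.18 with equal array medians, -0.017 after quantile normalization and -0.033 without HSC replicate 2. It was 0.15, with 1 gene called higher, without HSC replicate 1. Itgb5 stood out because its probe sets disagreed. The brightest, 1456133_x_at, read 196 and 266 units in HSC and 203 and 199.9 in MPP, a log2 difference of 0.18 (95% interval -0.30 to 0.65). The other 3 were all called lower in HSC. Probe set 1417533_a_at read 47.7 and 30.0 units in HSC and 156 and 116 in MPP, at -1.68 (SE 0.30, adjusted p = 0.00523 by limma).

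Probe set 1456195_x_at of Itgb5 read 20.97 and 17.2 units in HSC and 73.0 and 78.8 in MPP, at -1.71 (SE 0.32, adjusted p = 0.00689 by limma). Probe set 1417534_at did not pass the floor on either HSC array and read 50.8 and 21.4 units in MPP, at least 1.97-fold lower in HSC (adjusted p = 0.0460). The 4 averaged gave -1.27 (adjusted p = 0.0106). Probe set 1417534_at lost its call when HSC replicate 2 (-1.83, adjusted p = 0.0546), MPP replicate 1 (-1.33, 0.461) or MPP replicate 2 (-2.38, 0.0614) was left out. Without MPP replicate 2, 1456195_x_at lost it too (-1.66, adjusted p = 0.0616). The suffix _x_at marks probes that may bind other transcripts, and both the brightest probe set and 1456195_x_at carry it. Beta 5 pairs with alpha V, whose Itgav probe set was higher in HSC.

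**Figure D2:**
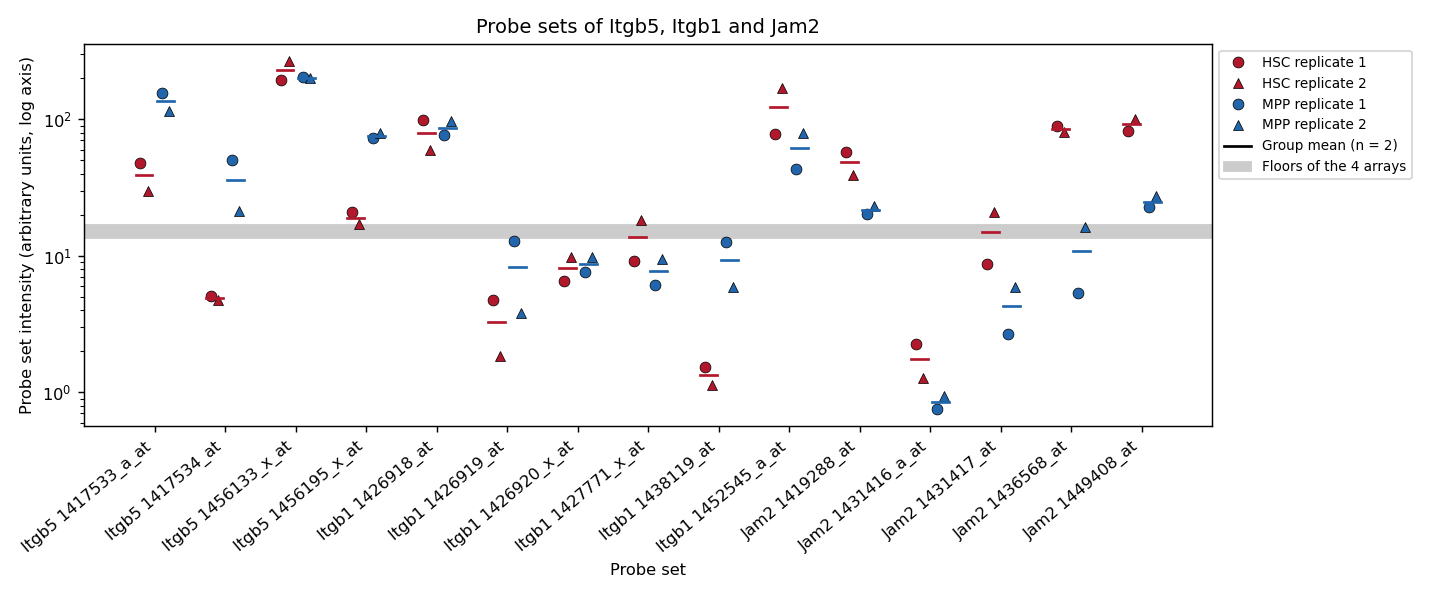
Intensity (arbitrary units, log axis) of every probe set of Itgb5, Itgb1 and Jam2 on each array, with group means as lines and the range of the array floors in grey. For Itgb5, 3 of 4 probe sets have both HSC points below both MPP points, while 1456133_x_at reads 196 to 266 units on all arrays, and for Jam2 both HSC points of all 5 probe sets lie above the MPP points.

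Itgb1 encodes beta 1, the partner of most alpha subunits, and its data did not settle a direction. Probe set 1452545_a_at read 77.6 and 169 units in HSC and 42.9 and 79.4 in MPP, at 0.90 (95% interval 0.058 to 1.75, adjusted p = 0.175 by limma). Probe set 1426918_at read 99.4 and 59.5 in HSC and 76.3 and 97.6 in MPP, at -0.15 (-0.81 to 0.51). The groups overlapped on both. Of the other 4 Itgb1 probe sets, 3 were at or under the floor on all arrays and the fourth was above it only on HSC replicate 2. Without HSC replicate 1, the first was called higher, at 1.43 (adjusted p = 0.0127).

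Itgb7, which pairs with alpha 4 or alpha E, read 49.1 and 83.0 units in HSC and 102 and 95.7 in MPP. Its log2 difference was -0.59 (95% interval -1.23 to 0.06, adjusted p = 0.253 by limma). Itgb4 and Itgb8 were at or under the floor on all arrays, and Itgb6, the epithelial partner of alpha V, had no tested probe set. The cadherin genes Cdh1 and Cdh2, of E-cadherin and N-cadherin, were also at or under the floor on all 4 arrays. In all, 5 genes (Itgam, Itgb4, Itgb8, Cdh1 and Cdh2) had no probe set above the floor on any array, which does not show that they are not expressed.

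Of the selectin ligand, the hyaluronan receptor and Cd47, 2 of 3 fell, or 1 without HSC replicate 2 or MPP replicate 1 and none without MPP replicate 2. By comparison, 5.9% of all 12382 genes tested were called lower and 7.71% higher. Cd44 encodes the receptor for hyaluronan, a sugar polymer of the marrow matrix. It read 662 and 735 units in HSC and 1286 and 1395 in MPP, a log2 difference of -0.94 (SE 0.16, adjusted p = 0.00404 by limma). A second tested probe set read 772 and 631 in HSC and 988 and 1412 in MPP, at -0.75 (SE 0.20, adjusted p = 0.0375). On both probe sets the HSC values lay below both MPP values. Without MPP replicate 2 they were at -0.88 and -0.50 with no call (adjusted p = 0.0590 and 0.377), and without HSC replicate 2 the second was at -0.61 with no call (adjusted p = 0.0696). Averaged over its 4 probe sets, 2 of them near the floor, Cd44 was at -0.59 (adjusted p = 0.155).

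Selplg encodes PSGL-1, the ligand of P-selectin on vessel walls. It read 395 and 284 units in HSC against 579 and 581 in MPP. The log2 difference was -0.78 (SE 0.20, adjusted p = 0.0304 by limma), a level 1.72-fold lower in HSC. Leaving out HSC replicate 2 (-0.55, adjusted p = 0.0751), MPP replicate 1 (-0.78, 0.138) or MPP replicate 2 (-0.78, 0.147) ended the call. Cd47, the signal that restrains phagocytes through Sirpa, was bright on all arrays, at 1560 and 1739 units in HSC and 1926 and 1989.7 in MPP. Its log2 difference was -0.25 (95% interval -0.58 to 0.085), with none of 5 tested probe sets called by limma (lowest adjusted p = 0.0572).

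Of the adaptors, Tln1, talin 1, read 449 and 538 units in HSC and 338 and 359 in MPP. Its log2 difference was 0.49 (95% interval 0.089 to 0.89, adjusted p = 0.122 by limma). Its other tested probe sets were dimmer and lay at -0.54 and 0.45. Ilk, integrin-linked kinase, read 492 and 469 units in HSC and 302 and 360 in MPP, at 0.53 (0.13 to 0.93, adjusted p = 0.0933). Both genes had HSC values above both MPP values and no call, although both had an unadjusted p under 0.05. Over all 12382 genes tested, 2098 were higher at that threshold. Without HSC replicate 1, Tln1 was called at 0.62 (adjusted p = 0.0479).

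**Figure D3:**
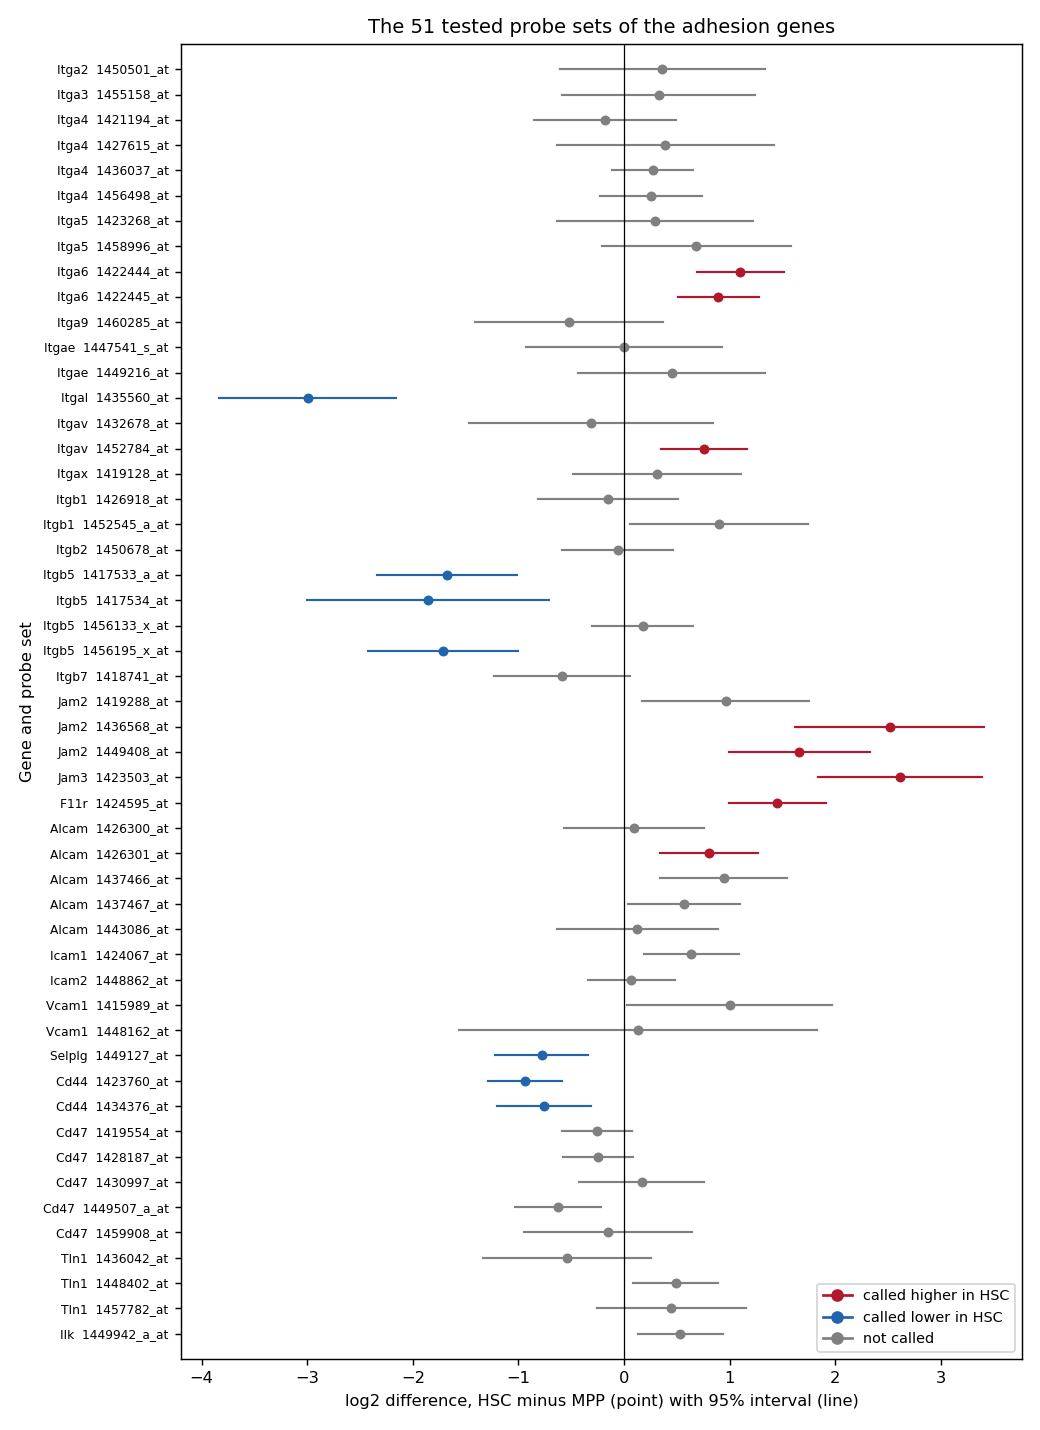
The log2 difference (HSC minus MPP) with its 95% interval from limma for each of the 51 tested probe sets, coloured by call. Of these, 8 were called higher and 7 lower, against 5.96% and 4.65% of all 27022 probe sets tested, and probe sets of Jam2 and Itga6 agree in sign, whereas those of Itgb5, Itgb1, Itgav, Itga4, Cd47 and Tln1 differ.

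Other adhesion genes, listed by family, were read from the same fit. Over all 12382 genes tested, 7.71% were called higher, and of 3 tested integrin subunits outside the list 1 was. This was Itgb3, the beta subunit of the platelet and vitronectin receptors, with 205 and 223 units in HSC and 74.1 and 15.2 in MPP. Its log2 difference was 2.42 (SE 0.48, adjusted p = 0.00994 by limma). The MPP arrays differed widely, and the difference was 3.37 without MPP replicate 1 and 1.46 without MPP replicate 2. The call of Itgb3 was lost with no filter on dim probe sets (adjusted p = 0.0552 by limma) and with no prior trend (0.105). Itgb3 was one of a pair. Itga2b, its platelet partner and a megakaryocyte gene, had no call at 0.39 (adjusted p = 0.336).

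Of 30 tested genes of the integrin activation and adhesion complex, 1 rose and 1 fell, against 7.71% and 5.9% of all 12382 genes tested. The median log2 difference of the 30 was -0.053, against 0.10 over all genes. At an unadjusted limma p under 0.05, 4 of the 30 were higher and 6 lower, against 2098 and 1458 of the 12382. With equal array medians none of the 30 rose and 5 fell, with a median of -0.29. Without _x_at, _s_at and _a_at probe sets, the median was -0.20 over only the 20 genes whose brightest probe set was kept. Without HSC replicate 1, 2 rose and 4 fell, and without MPP replicate 1 none rose and 1 fell, with a median of -0.11. The median was -0.0039 without HSC replicate 2 and -0.012 without MPP replicate 2. Fermt3, kindlin 3, the kindlin of blood cells, read 3958 and 4464 units in HSC and 2836 and 2733 in MPP, at 0.59 (SE 0.15, adjusted p = 0.0274 by limma). Leaving out MPP replicate 1 (0.62, adjusted p = 0.219) or MPP replicate 2 (0.57, 0.283), or making array medians equal (0.36, 0.121), ended the call of Fermt3. Parvg, gamma parvin, which binds integrin-linked kinase, read 207 and 117 units in HSC and 416 and 461 in MPP, at -1.45 (SE 0.26, adjusted p = 0.00482). The call of Parvg was lost with no prior trend (adjusted p = 0.0792 by limma). Fermt2, kindlin 2, was above the floor on 2 of the 4 arrays and at -0.19, and Fermt1 was not tested.

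Of 12 further junction, immunoglobulin and selectin family genes, Esam and Cadm1 rose and none fell by limma. With an unadjusted p under 0.05, 2 were higher and 1 lower, against 2098 and 1458 of all 12382 genes tested. Esam, an adhesion molecule of endothelial junctions, read 379 and 328 units in HSC and 100.4 and 135 in MPP, at 1.55 (SE 0.22, adjusted p = 0.00143 by limma). Cadm1 read 76.1 and 46.6 in HSC and 21.6 and 22.0 in MPP, at 1.24 (SE 0.35, adjusted p = 0.0498), and lost its call when HSC replicate 1 (0.92, adjusted p = 0.191), MPP replicate 1 (1.23, 0.136) or MPP replicate 2 (1.25, 0.139) was left out. Of 7 tested cadherins and catenins, none was called by limma, with the smallest adjusted p at 0.0632 for Ctnna1. Against 2098 and 1458 of all 12382 genes at an unadjusted p under 0.05, 3 of the cadherins and catenins were higher and none lower. Without HSC replicate 1, 2 of them were called higher.

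Among 16 tested sialomucin and hyaluronan system genes, 1 rose and 3 fell, against 7.71% and 5.9% of all 12382 genes tested. At an unadjusted limma p under 0.05, 3 of the 16 were higher and 3 lower, against 2098 and 1458 of the 12382. The list was mixed and also held Sirpa, Thbs1 and genes of sugar-adding enzymes such as Fut7. Fut7, the fucosyltransferase that completes selectin ligands such as PSGL-1, read 47.0 and 20.8 units in HSC and 124 and 149 in MPP. Its log2 difference was -1.91 (SE 0.34, adjusted p = 0.00542 by limma), with no call when the prior had no trend (adjusted p = 0.0595). Hmmr, a hyaluronan receptor that also acts at the mitotic spindle, read 65.1 and 19.4 units in HSC and 373 and 275 in MPP, at -2.94 (SE 0.41, adjusted p = 0.00124). Cd93, a sialomucin-like receptor of early blood and endothelial cells, was at -0.64 (SE 0.18, adjusted p = 0.0457), and lost its call when HSC replicate 2 (-0.57, adjusted p = 0.0648), MPP replicate 1 (-0.83, 0.0738) or MPP replicate 2 (-0.45, 0.432) was left out. Podxl, a CD34-related sialomucin, read 81.2 and 64.0 units in HSC and 29.7 and 23.6 in MPP, at 1.27 (SE 0.32, adjusted p = 0.0280). It lost its call when HSC replicate 1 (1.11, adjusted p = 0.0817), MPP replicate 1 (1.40, 0.0556) or MPP replicate 2 (1.13, 0.135) was left out. Without HSC replicate 2, 3 genes of this list were called higher and 2 lower, without MPP replicate 1 none and 2, and with equal array medians none and 3.

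Of 6 tested matrix ligands, 2 rose and none fell by limma, with a median log2 difference of 0.78. That median was 0.50 with the pseudocount at the overall median and 1.32 over the 2 genes left when the lowest 60% of probe sets were left out. Without MPP replicate 2, 1 was called higher. At an unadjusted p under 0.05, 3 were higher and 1 lower, against 2098 and 1458 of all 12382 genes tested. Col4a2, a chain of basement membrane collagen, read 159 and 167 units in HSC and 53.9 and 48.8 in MPP, at 1.56 (SE 0.24, adjusted p = 0.00234 by limma). Col4a1, the chain encoded beside it, read 283 and 194 units in HSC and 116 and 99.6 in MPP, at 1.08 (SE 0.24, adjusted p = 0.0169). Leaving out MPP replicate 2 ended the call of Col4a1 (0.98, adjusted p = 0.0907). The stromal collagen gene Col1a2 rose as well, with 128 and 138 units in HSC and 26.6 and 31.2 in MPP (log2 difference 1.99, SE 0.27, adjusted p = 0.00111).

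**Figure D4:**
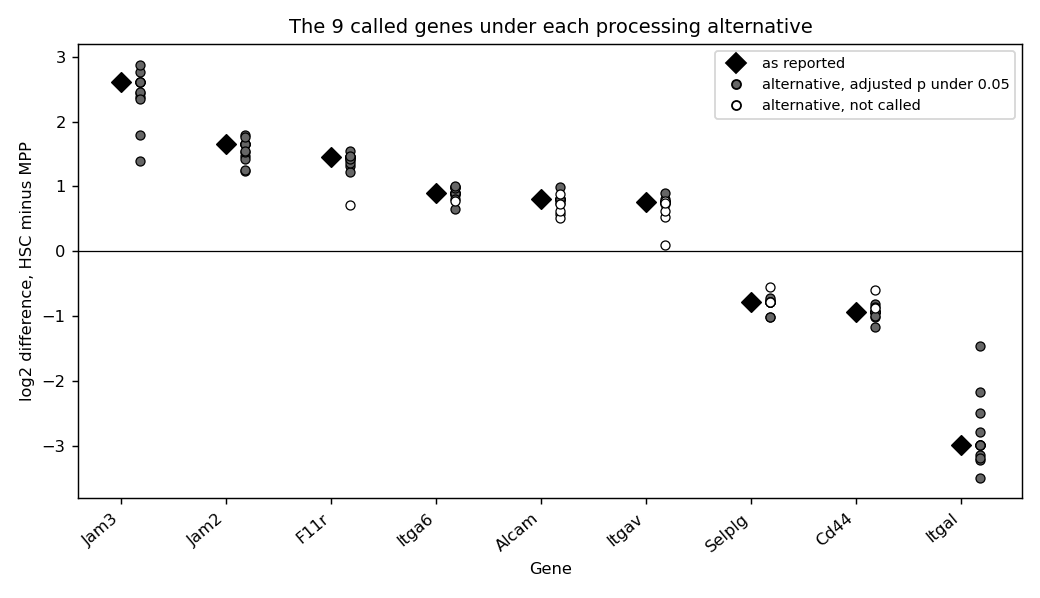
The log2 difference (HSC minus MPP) of the 9 called genes as reported (diamonds) and under each processing alternative (circles, filled where the adjusted p was under 0.05). No circle crosses 0, and open circles are most frequent for Alcam and Itgav, called in 6 and 7 of 13 alternatives, and then for Selplg, called in 8.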

How the data were processed

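The authors deposited 1 table with the intensity of each probe set, on a linear scale, for the 4 arrays. How they were computed was not given in the sources used here. After trimming 2% of values at each end, every array averaged 100.0, so the deposited intensities had been scaled to one level, and no further normalization was applied. RNA was isolated with ISOGEN and amplified in 2 cycles, per the labels' protocols. That favours 3' ends and can blur low signals. No detection calls were used.

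Probe sets were named by the 2016 platform annotation, updated through gene identifiers to RefSeq (GRCm38.p6). Of those that are not controls, 34945 had 1 gene symbol, 932 several and 9160 none, and 34741 with 1 symbol matched RefSeq. The scale was log2(intensity + 6.01), with 0.25 of the overall median as pseudocount. The 64 control probe sets and the lowest 40% by mean level were left out. HSC and MPP were compared in R 4.3.3 by limma 3.58.1, using lmFit and then eBayes (trend on mean level, no covariates, 2-sided). Residual degrees of freedom were 2 and prior ones 8.48. The fit was also run on simulated data, with changes larger than most of those called here, placed in brighter probe sets. That run does not show how well smaller differences or signals near the floor are recovered. A bound ("at least") sets the mean log2 intensity of the brighter group against the higher of signal and floor on each array of the dimmer group.

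The genes, the accompanying lists and the markers were chosen with earlier results of these data known. Every one of the 38 names of the main list was given, but only some genes of the accompanying lists and markers were. Values were given for genes with a called probe set, their integrin partners and the called genes of the other lists. The rule for sequences foresaw protein stretches. Promoters were used in their place, by a choice made after the files were read, as were the motifs and the genes given without a call. The alternatives are another pseudocount, filter, scaling and prior, a replicate block, 2 rules on probe sets and leaving out each array.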

Additional observations from a re-analysis of the deposited data

How the results depend on the processing

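Of 13 alternatives, none changed the direction of the 9 called genes. Itgal and Jam2 were called in 13 of 13, Jam3 in 12 of 12, F11r in 12 of 13, Itga6 in 11, Cd44 in 10, Selplg in 8, Itgav in 7 and Alcam in 6. Adhesion genes called higher and lower numbered 3 and 1 with no prior trend, and between 3 and 9 and between 1 and 3 when arrays were left out in turn. Their median log2 difference was 0.28 with the pseudocount at the median, 0.36 with no filter, 0.27 after quantile normalization, 0.175 with equal array medians, 0.22 with a gene's probe sets averaged and 0.33 without _x_at, _s_at and _a_at probe sets. It was 0.41 to 0.44 when arrays were left out. Probe sets called higher and lower numbered 917 and 780 with no filter, 1020 and 2379 with equal array medians and 633 and 374 with no trend. They ranged from 1026 to 2011 and from 568 to 1908 when arrays were left out. Arms left with 1 array were assumed to vary like the other group.

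Signs reversed for genes without a call. Itgb5 was at -0.058 with equal array medians, -1.27 with the mean of its probe sets, -1.85 without _x_at, _s_at and _a_at probe sets and, with arrays left out in turn, from -0.041 (HSC replicate 2) to 0.39. Itgb1 was at -0.068 and -0.15 under the 2 rules on probe sets. Icam2 was at -0.16 with equal array medians and from -0.13 (without HSC replicate 1) to 0.26 with arrays left out. In the same way Itga2 ranged from -0.089 (without HSC replicate 1) to 0.82 and Itga3 from -0.072 (without HSC replicate 2) to 0.73. The cause was not tested, except that the rules on probe sets drop or average probe sets that disagree.

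With the replicate number as a block, 2525 probe sets were called higher and 1833 lower, and 8 and 3 adhesion genes. The deviations of same-numbered arrays had a correlation of 0.027 over 27022 probe sets, so the numbers were not taken as pairs. Signals near the floor, as for Jam3 in MPP and Itgal in HSC, limit the size of those differences.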
